A study of Mus musculus with 2 samples.

Results

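Klf2, Klf4, Nos3, Edn1 and Aqp1 are endothelial genes whose expression is tied to blood flow, and their UMI counts (unique molecular identifiers, one per captured transcript) were followed through the cells of the embryonic mouse heart. They were picked by symbol from the gene list of the count matrices, 5 of 32285 genes, and all 5 were found. Hearts of stage E10.5 were dissociated with TrypLE after the embryos had spent 3 hours on ice, and 4 hearts were pooled into 1 library for each of 2 genotypes. The library labelled wildtype carried BubR1+/+ with Nkx2.5-cre (het), and the library labelled knockout carried BubR1fl/fl with Nkx2.5-cre (het). BubR1, encoded by Bub1b, holds back chromosome separation until the spindle is attached. Both pools carried the Cre transgene, whose Nkx2.5 control limits recombination to cells that come from cardiac progenitors, so cells of other origin keep the floxed gene. With 1 library per genotype no difference between genotypes was tested, and every interval covers counting error only at a level of 95%.

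Blood moving over the endocardium, the inner lining of the heart, exerts shear stress on the cells. Mechanosensitive channels and a kinase cascade through Map3k3 and Mapk7 then act on MEF2 factors, which switch on the transcription factor genes Klf2 and Klf4, and the cerebral cavernous malformation proteins restrain this cascade. Klf2 in turn favours Nos3, the endothelial nitric oxide synthase, and Aqp1, a water channel, and holds down Edn1, the precursor of the vasoconstrictor endothelin 1. In the embryonic heart the endocardium of the valve-forming cushions, where the lumen is narrow, is known for high Klf2.

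Promoters of Klf2, Klf4 and Aqp1 are shown because these 3 genes were more than 2-fold higher in cushion than in chamber endocardial-like cells of both libraries, and because the Klf2 promoter holds the element through which MEF2 factors are known to act. RefSeq windows (GRCm38.p6) of the 250 bases before the RefSeq gene start were matched for 4 of 5 genes. Klf2 is given from chr8:72318812-72319061 on the plus strand, Klf4 from chr4:55532476-55532725 on the minus strand and Aqp1 from chr6:55336049-55336298 on the plus strand, each 5′ to 3′ with motif matches in capitals.
Klf2: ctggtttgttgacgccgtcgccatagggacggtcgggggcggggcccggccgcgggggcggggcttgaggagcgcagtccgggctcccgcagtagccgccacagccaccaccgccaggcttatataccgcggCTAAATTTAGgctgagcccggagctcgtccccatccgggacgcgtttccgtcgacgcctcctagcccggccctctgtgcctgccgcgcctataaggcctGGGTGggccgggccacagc
Klf4: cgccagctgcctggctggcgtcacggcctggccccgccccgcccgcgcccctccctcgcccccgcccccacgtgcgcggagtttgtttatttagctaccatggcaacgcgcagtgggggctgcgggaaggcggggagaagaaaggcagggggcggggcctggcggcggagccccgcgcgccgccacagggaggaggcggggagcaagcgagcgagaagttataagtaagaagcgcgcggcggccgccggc
Aqp1: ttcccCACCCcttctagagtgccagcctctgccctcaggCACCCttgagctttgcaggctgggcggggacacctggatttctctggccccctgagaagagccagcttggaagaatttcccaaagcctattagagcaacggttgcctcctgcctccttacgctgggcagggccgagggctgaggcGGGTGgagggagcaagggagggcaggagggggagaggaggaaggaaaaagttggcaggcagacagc

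Searched on both strands were a MEF2 motif (CTA, any 4 bases, then TAG), the CACCC box bound by Kruppel-like factors, the AP-1 motif TGANTCA and the GATA motif AGATAA. The Klf2 window held CTAAATTTAG, a match to the MEF2 motif, beginning 118 bases before that start. That motif occurred in 3.2% of 32851 promoter windows of the same length. Aqp1 had 3 CACCC boxes, at 245, 211 and 66 bases before the start, and Klf2 had 1, at 19 bases. Edn1, whose window is not printed, had CACCC boxes at 197 and 84 bases. A CACCC box lay in 52% of all windows. The Klf4 window had no match to any of these motifs. A match is a stretch of letters, not a bound site.

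In the mm10 annotation (GENCODE vM21) Klf2 spans 72319033 to 72321656 on chromosome 8 and Klf4 spans 55527143 to 55532466 on chromosome 4. Nos3 spans 24364810 to 24384474 on chromosome 5, Edn1 spans 42301476 to 42307990 on chromosome 13 and Aqp1 spans 55336432 to 55348555 on chromosome 6. Nos3 is overlapped on the opposite strand by Gm15587 and Atg9b, and Edn1 by Gm47118. The GENCODE start lies 29 bases upstream of the RefSeq start for Klf2, 9 bases downstream for Klf4 and 133 bases downstream for Aqp1, so the CACCC box of Klf2 falls within the GENCODE gene. The sources used here do not give how the counting treated strand, so reads from these overlaps are uncertain.

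After filtering, 7440 cells labelled wildtype and 5966 labelled knockout were kept, with 79400375 and 110829003 UMIs and medians of 9504.5 and 17042.5 UMIs per cell. Only 8 barcodes were shared between the libraries, 0 of them among endothelial cells. Cells were called endothelial-like when at least 4 of 10 markers such as Pecam1, Cdh5 and Emcn were detected among 3000 sampled UMIs, with at least 2 more markers than of any other of the 10 classes. This gave 1337 endothelial cells labelled wildtype and 721 labelled knockout, with medians of 7 and 6 markers and of 7742 and 11534 UMIs. The class is a range of a marker score, and 135 and 157 of these cells lay exactly at a limit of the gate, while 62 and 79 other cells were 1 marker short of it. The median endothelial cell had 1 cardiomyocyte marker, 1 mesenchymal marker and 0 of every other class. Within the class, chamber endocardial-like cells (more UMIs of Npr3, Nrg1, Adgrg6 and Irx5 than of the other panels) numbered 941 and 525. Cushion endocardial-like cells (Wnt4, Prox1, Msx1, Nfatc1, Snai2 and Twist1) numbered 80 and 55. Vascular endothelial-like cells (Fabp4, Tcf15, Meox2, Cd36, Aplnr and Apln) numbered 131 and 7, the second too few to describe, and 185 and 134 endothelial cells had no subtype. They are called chamber, cushion and vascular cells from here on.

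The libraries differed in several ways that touch the results. Bub1b itself was at 24.5 CPM (UMIs scaled to the UMI total of the cell group) in endothelial cells labelled wildtype and 33.5 CPM in those labelled knockout, a log2 ratio of 0.45 (interval 0.22 to 0.68). In cardiomyocyte-like cells it was lower in the library labelled knockout (55.1 against 32.3 CPM). The sources used here do not name the floxed exons, so the level of this 3′ tag does not check the label in endothelial cells. Hemoglobin RNA made up 3.67% of the UMIs of endothelial cells labelled wildtype and 0.92% of those labelled knockout. Of 8 measured hemoglobin genes 5 had log2 ratios with intervals below 0 and 2 above, against 29.6% and 18.3% of all genes measured in endothelial cells. Below were the adult-type Hbb-bs (-5.57), Hbb-bt (-4.25), Hba-a2 (-3.35) and Hba-a1 (-2.96) and the embryonic Hbb-y (-1.27), the most abundant. Above were the embryonic Hbb-bh1 (3.09) and Hba-x (0.91). Whether the pools differed in stage was not tested. Droplets with at most 100 UMIs held 26.3% and 7.34% hemoglobin. By that measure free RNA could be at most 14.0% and 12.5% of endothelial UMIs, which would put at most 7.75 and 5.08 CPM of Klf2 and 3.46 and 1.52 CPM of Nos3 into these cells. All 15 genes of a G2/M list were higher in endothelial cells labelled knockout by their counting intervals, against 18.3% of all genes measured. The median log2 ratio of the list was 0.56. Among its genes were Ccnb1 (1.02), Ube2c (0.94), Plk1 (0.76) and Top2a (0.68), the last the most abundant. What part these differences play in the ratios between libraries was not tested.

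Klf2 was the most abundant of the 5 genes and its UMIs were highest in cushion cells of both libraries. In cells labelled wildtype it reached 866 CPM in cushion cells (Poisson interval 797 to 938), 353 CPM in chamber cells (340.3 to 367) and 212 CPM in vascular cells (190.1 to 236). In cells labelled knockout it was 807 CPM in cushion cells (745 to 872) and 222 CPM in chamber cells (211 to 233). Endothelial cells without a subtype lay between cushion and chamber cells, at 463 and 368 CPM. None of these neighbouring intervals overlapped within a library. Among other classes with at least 50 cells, the highest level in the library labelled wildtype was 77.4 CPM in epicardial-like cells, whose interval overlapped the 71.2 CPM of macrophage-like cells. In the library labelled knockout macrophage-like cells were at 203 CPM, a level whose interval overlapped that of chamber cells. Mesenchymal-like and cardiomyocyte-like cells had between 15.9 and 26.9 CPM and erythroid-like cells 5.03 and 0.89 CPM. By the droplet measure above, free RNA could put at most 13.1 and 8.17 CPM of Klf2 into cardiomyocyte-like cells.

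**Figure D1:**
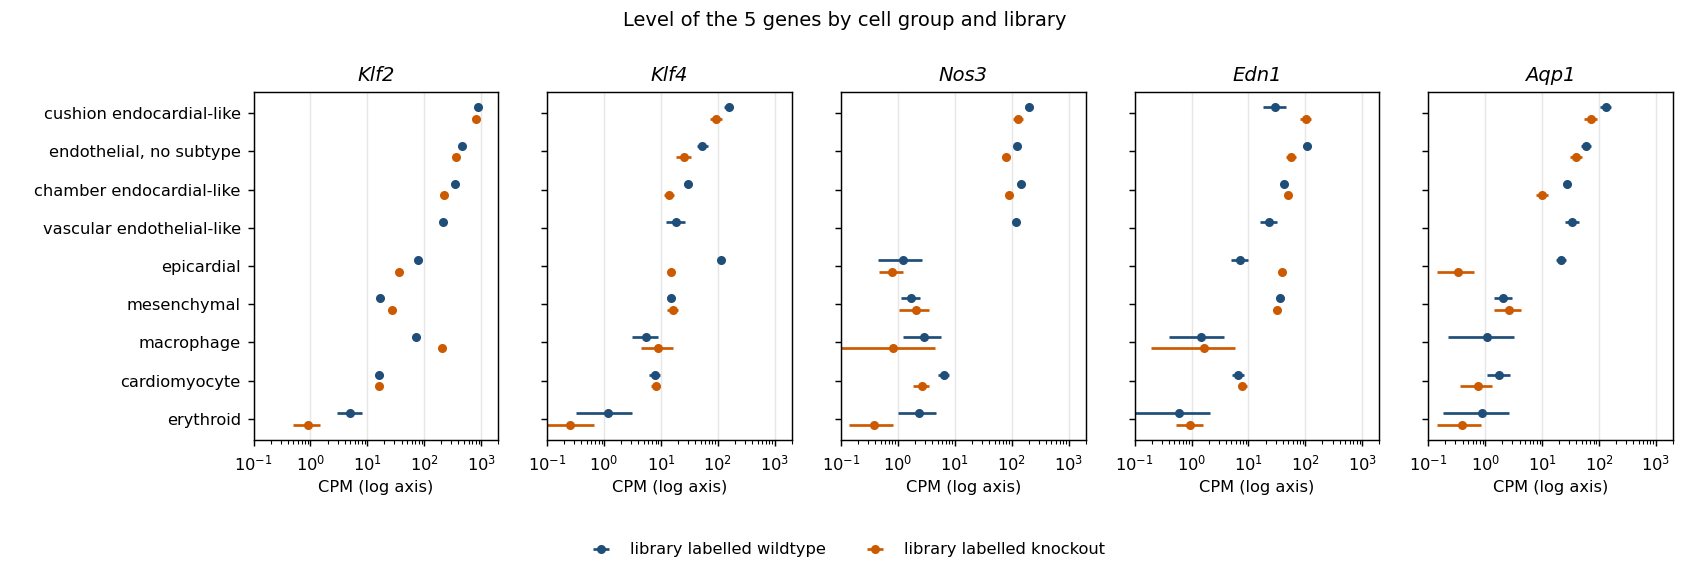
Level of each gene in CPM (log axis) by cell group, with exact Poisson intervals, for the library labelled wildtype (blue) and the library labelled knockout (orange); groups under 50 cells or at 0 are not drawn. Klf2, Klf4, Nos3 and Aqp1 were highest in cushion cells of both libraries, and Nos3 was at or under 6.44 CPM in every class drawn outside the endothelium.

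Klf4, a close relative of Klf2, was far less abundant but had a steeper contrast between subtypes. It reached 155 CPM in cushion cells against 29.5 CPM in chamber cells and 18.0 CPM in vascular cells of the library labelled wildtype. In the library labelled knockout it reached 93.3 CPM in cushion cells and 13.8 CPM in chamber cells. Klf4 was not specific to endothelium: epicardial-like cells held 112 CPM in the library labelled wildtype, above every endothelial group but cushion cells, and 14.7 CPM in the library labelled knockout. Mesenchymal-like cells were at 14.7 and 15.9 CPM, and the second value overlapped that of chamber cells in the same library.

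Nos3 was the most evenly spread of the 5 genes over the endothelium and the one with the largest gap to other cells. In the library labelled wildtype it was at 205 CPM in cushion cells (172 to 242), 149 CPM in chamber cells (140.1 to 157) and 117 CPM in vascular cells (101 to 135). In the library labelled knockout it was at 130.4 CPM in cushion cells (106 to 158) and 90.9 CPM in chamber cells (84.1 to 98.1). The highest level in any other class with at least 50 cells was 6.44 CPM, in cardiomyocyte-like cells labelled wildtype. By the droplet measure above, free RNA could put at most 5.82 CPM of Nos3 into these cells.

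Edn1 had another order. In the library labelled wildtype it was highest in endothelial cells without a subtype, at 107 CPM, followed by chamber cells at 42.3 CPM (37.9 to 47.1) and cushion cells at 29.2 CPM (17.9 to 45.2), whose intervals overlapped. Mesenchymal-like cells, at 35.7 CPM, overlapped both. In the library labelled knockout cushion cells came first at 102 CPM (81.1 to 127) and chamber cells had 49.4 CPM (44.4 to 54.8). The 80 UMIs behind that cushion value came from 21 of 55 cells, and 1 cell held 24 of them. Epicardial-like cells had 7.15 CPM of Edn1 in the library labelled wildtype and 38.9 CPM in the library labelled knockout.

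Aqp1, like Klf4, was highest in cushion cells of both libraries. It was at 132 CPM in cushion cells, 33.6 CPM in vascular cells and 27.4 CPM in chamber cells of the library labelled wildtype, the last pair with overlapping intervals. It was at 71.6 CPM in cushion cells and 9.99 CPM in chamber cells of the library labelled knockout. Epicardial-like cells were at 21.6 CPM and 0.33 CPM, from 106 and 8 UMIs, and all other classes with at least 50 cells stayed at or under 2.57 CPM in both libraries.

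Against the mean of 5 other classes, with 10 CPM added to both sides, Klf2 was 8.25-fold and 4.53-fold higher in endothelial cells of the libraries labelled wildtype and knockout, and Nos3 11.9-fold and 8.98-fold. These 2 of the 5 genes passed 4-fold in each library, as did 1.42% of 13840 genes in the library labelled wildtype and 1.03% in the library labelled knockout. Aqp1 was 3.15-fold and 2.76-fold higher, Edn1 2.87-fold and 2.49-fold, and Klf4 1.27-fold and 1.63-fold. Klf4 thus had the smallest excess over other classes of the 5 genes in each library.

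Cushion cells exceeded chamber cells for Klf2, Klf4, Nos3 and Aqp1 in both libraries. The log2 ratio of cushion to chamber was 1.29 (1.16 to 1.42) and 1.86 for Klf2 in the libraries labelled wildtype and knockout. It was 2.39 and 2.76 for Klf4 and 2.26 and 2.84 for Aqp1. Nos3 had smaller ratios, 0.46 (0.20 to 0.72) and 0.52 (0.21 to 0.82), and the latter was 0.60 (-0.067 to 1.22) when cells were sampled to equal depth. Klf2, Klf4 and Aqp1 were thus at least 2-fold higher in cushion cells in each library, as were 6.67% and 5.29% of all genes measured there, and Edn1 also passed this fold in the library labelled knockout. Edn1 was at -0.53 (-1.26 to 0.12) in the library labelled wildtype and 1.05 (0.68 to 1.40) in the library labelled knockout. The former was -1.16 (-2.23 to -0.26) with a subtype gate of 3 UMIs, -0.77 (-1.59 to -0.046) without the cell with most Edn1 UMIs in each subtype and -0.017 with gates read from all UMIs of a cell. The latter was 0.65 (0.22 to 1.06) without such cells, and 0.29 (-0.82 to 1.25) when cells were sampled to equal depth.

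**Figure D2:**
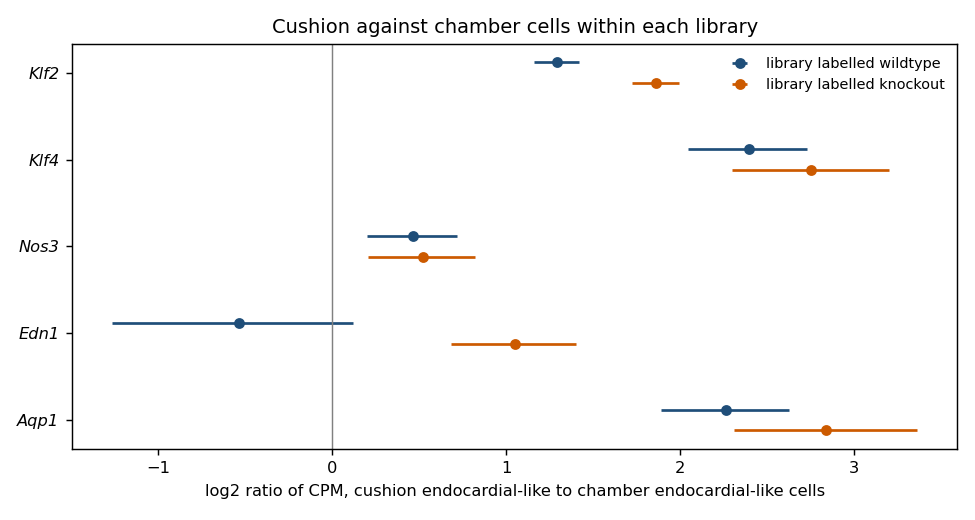
Log2 ratio of CPM in cushion to chamber endocardial-like cells within each library, with counting intervals. Klf2, Klf4, Nos3 and Aqp1 lie to the right of 0 in both libraries, and Edn1 does so in the library labelled knockout only.

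Other genes linked to flow or to Klf2 did not all share this order. Wnt9b, a ligand gene of valve endocardium, had cushion to chamber log2 ratios of 2.61 and 3.42, and Thbd, which encodes the anticoagulant thrombomodulin, 0.99 and 1.52. Gja4, the gene of a gap junction protein of arteries, was lower in cushion cells, at -0.49 and -1.84, and so was Dlc1, at -1.73 and -0.24. These 4 were chosen after their values were seen. In vascular cells of the library labelled wildtype, against chamber cells, Klf2 was at -0.74 (-0.90 to -0.57), Klf4 at -0.71, Edn1 at -0.88 and Nos3 at -0.34, while the interval of Aqp1 (0.29) held 0.

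Between the libraries, the 2 Kruppel-like factor genes, Nos3 and Aqp1 had lower levels in endothelial cells labelled knockout, and Edn1 was slightly higher. Klf2 went from 379.8 to 291 CPM, a log2 ratio of -0.38 (-0.45 to -0.31). Klf4 went from 38.7 to 22.0 CPM, at -0.82 (-1.06 to -0.58). Nos3 went from 144 to 91.7 CPM, at -0.65 (-0.77 to -0.53), and Aqp1 from 38.9 to 19.8 CPM, at -0.97 (-1.22 to -0.73). Edn1 was at 48.3 and 55.0 CPM, a log2 ratio of 0.19 (0.01 to 0.36). The ratio of Edn1 was -0.00999 (-0.35 to 0.33) with every cell sampled to equal depth. Its interval also held 0 with a class gate of 6 markers (0.18), without vascular cells (0.067) and without the cell with most Edn1 UMIs in each library (0.17).

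By counting intervals from all UMIs 4 of 5 genes were lower and 1 higher in the library labelled knockout, against 29.6% lower and 18.3% higher of 13840 genes measured in endothelial cells, whose median log2 ratio was -0.10. Aqp1 passed 2-fold lower at equal depth per cell, at -1.21 (-1.80 to -0.66), and narrowly without the cell with most of its UMIs in each library, at -1.01. With all UMIs none of the 5 reached 2-fold in the whole class, where 2.36% of genes were at least 2-fold higher and 8.36% at least 2-fold lower. An interval off 0 was therefore common between these libraries. No spread between hearts or between libraries of 1 genotype can be set against these values.

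In chamber cells the values of Klf2, Klf4 and Aqp1 lay farther below 0 than in the whole class. The log2 ratios were -0.67 (-0.76 to -0.58) for Klf2, -1.09 (-1.44 to -0.75) for Klf4, -0.71 (-0.85 to -0.57) for Nos3 and -1.46 (-1.86 to -1.07) for Aqp1, which encodes the water channel. Klf4 and Aqp1 were thus past 2-fold lower, as were 7.98% of genes in chamber cells, and 30% had an interval below 0. Past 2-fold no longer held for Klf4 at equal depth per cell (-0.74), relative to the median gene or with gates read from all UMIs of a cell (-0.98 in each), nor for Aqp1 with the latter gates (-0.71) or a class gate of 6 markers (-0.86). Edn1 was at 0.22 (0.00 to 0.44). Chamber cells are most of the class, and the intervals of Klf4 and Aqp1 overlapped those of the whole class. With gates read from all UMIs of a cell Aqp1 had nearly the same ratio in both. Hemoglobin was 2.93% and 1.04% of the UMIs of chamber cells.

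In cushion cells Klf2 had a log2 ratio of -0.10 (-0.27 to 0.063) between the libraries. Klf4 was at -0.73 (-1.18 to -0.29), Nos3 at -0.65 (-1.03 to -0.27) and Aqp1 at -0.88 (-1.39 to -0.38). With gates read from all UMIs of a cell Klf4 was at -0.20 (-0.56 to 0.17), and at equal depth the intervals of Klf4 (-0.56), Nos3 (-0.57) and Aqp1 (-0.34) held 0, as did that of Nos3 (-0.45) with a class gate of 6 markers. By intervals, 3 of the 5 were lower there, against 12.2% of the genes measured in cushion cells. Edn1 was the 1 gene past 2-fold higher, at 1.81 (1.09 to 2.59) from 20 and 80 UMIs, where 4.54% of genes passed that fold. Its value at equal depth was 1.06 with an interval of -0.49 to 2.69. The gate itself differed in makeup. Prox1, one of its 6 markers, was at 213 CPM in cushion cells labelled wildtype and 16.6 CPM in those labelled knockout. Wnt4 was also lower, at 471 and 322 CPM, while Msx1 (21.9 and 66.5 CPM) and Twist1 (48.3 and 102 CPM) were higher. Nfatc1 was at 371 and 385 CPM and Snai2 at 11.7 and 12.8 CPM. With cushion cells chosen by Nfatc1 and Wnt4 alone, 56 and 44 cells, Klf2 was at -0.49 (-0.66 to -0.31). In cushion cells the 15 G2/M genes had a median log2 ratio of 1.36, beside -0.03 for all genes measured there. The summed level of the 15 was 719 and 1929 CPM, and hemoglobin made up 2.16% and 0.0997% of UMIs. The part of these differences in the cushion ratios was not tested, nor whether the ratio between libraries differs between chamber and cushion cells.

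**Figure D3:**
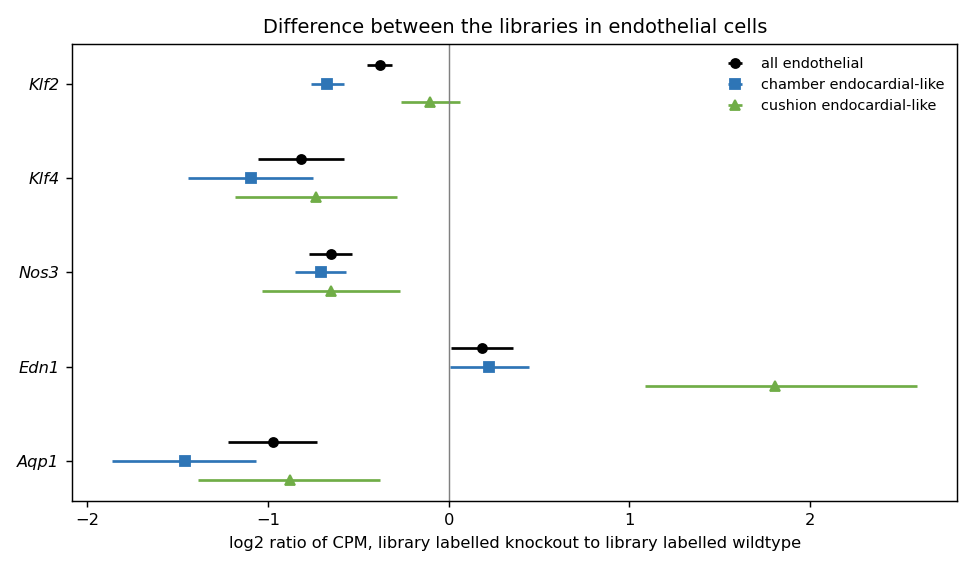
Log2 ratio of CPM between libraries (knockout label over wildtype label), with counting intervals, for all endothelial cells (circles), chamber cells (squares) and cushion cells (triangles). The intervals of Klf4, Nos3 and Aqp1 lie to the left of 0 in all 3 groups, that of Klf2 holds 0 in cushion cells, and Edn1 in cushion cells stands at 1.81.

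Endothelial cells without a subtype had lower Klf2 (-0.33), Klf4 (-1.09), Nos3 (-0.63) and Aqp1 (-0.57) in the library labelled knockout, and with Edn1 all 5 genes had intervals below 0, against 13.7% of genes measured there. Edn1, highest there in the library labelled wildtype, was at -0.93 (-1.30 to -0.56), opposite to its sign in cushion cells. In other classes Klf2 was at 1.51 (1.24 to 1.79) in macrophage-like cells, -2.50 (-3.63 to -1.39) in erythroid-like cells from 17 and 14 UMIs, and -0.03 (-0.31 to 0.26) in cardiomyocyte-like cells. In mesenchymal-like cells it was at 0.70 (0.41 to 0.99), but 1 cell labelled knockout held 61 of the 157 UMIs there. Without the cell with most Klf2 UMIs in each library, an alternative chosen after seeing the data, this ratio was 0.067 (-0.29 to 0.41). Epicardial-like cells had Klf4 at -2.93, Aqp1 at -6.05, Klf2 at -1.12 and Edn1 at 2.44, all with intervals off 0. Intervals below 0 were found for 26.7% of genes in epicardial-like cells and above 0 for 23.7%. Klf4 had intervals that held 0 in mesenchymal-like (0.11), cardiomyocyte-like (0.085) and macrophage-like cells (0.72). Aqp1 was at 0.30 in mesenchymal-like cells, again with an interval that held 0. In cardiomyocyte-like cells it was at -1.25 (-2.45 to -0.14) from 21 and 11 UMIs. That interval held 0 without the cell with most UMIs in each library. By the droplet measure above, free RNA could put at most 2.97 and 0.50 CPM of Aqp1 into cardiomyocyte-like cells, which held 1.76 and 0.74 CPM.

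Because cells labelled knockout held more UMIs, shares of cells with a UMI were compared after each cell was sampled down to 3000 UMIs. Klf2 was then found in 43.5% of endothelial cells labelled wildtype (Clopper-Pearson interval 40.8% to 46.2%) and 33.4% of those labelled knockout. In erythroid-like cells the shares were 0.90% and 0.14%, with median depths of 9812.5 and 20225 UMIs before sampling, but hemoglobin made up 78.6% and 46.2% of their UMIs and left fewer for other genes. Cardiomyocyte-like cells, a background with 6.18% and 1.48% hemoglobin UMIs, had Klf2 in 4.60% and 3.81%, with median depths of 13882 and 19169 UMIs, and mesenchymal-like cells in 3.99% and 3.23%. Nos3 was found in 34.7% and 25.8% of endothelial cells, Klf4 in 8.08% and 5.41%, Aqp1 in 7.48% and 4.16%, and Edn1 in 8.0% and 11.7%. The shares of these 4 genes were at most 0.90% in erythroid-like and at most 2.05% in cardiomyocyte-like cells. At full depth the shares for Klf2 were 59.9% and 59.2% and those for Nos3 62.7% and 60.7%.

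Klf2 was unevenly spread over cells. In cushion cells 71.3% and 63.6% had a UMI, and 51.2% and 47.3% had at least 2. In chamber cells 42.1% and 29.9% had a UMI, and 22.1% and 13.1% had at least 2. The 10% of endothelial cells with most Klf2 held 54.0% of its sampled UMIs in the library labelled wildtype and 63.0% in the library labelled knockout. Edn1 was in 6.25% and 10.9% of cushion cells (intervals 2.06% to 14.0% and 4.11% to 22.2%), a difference that was not detectable at this depth.

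**Figure D4:**
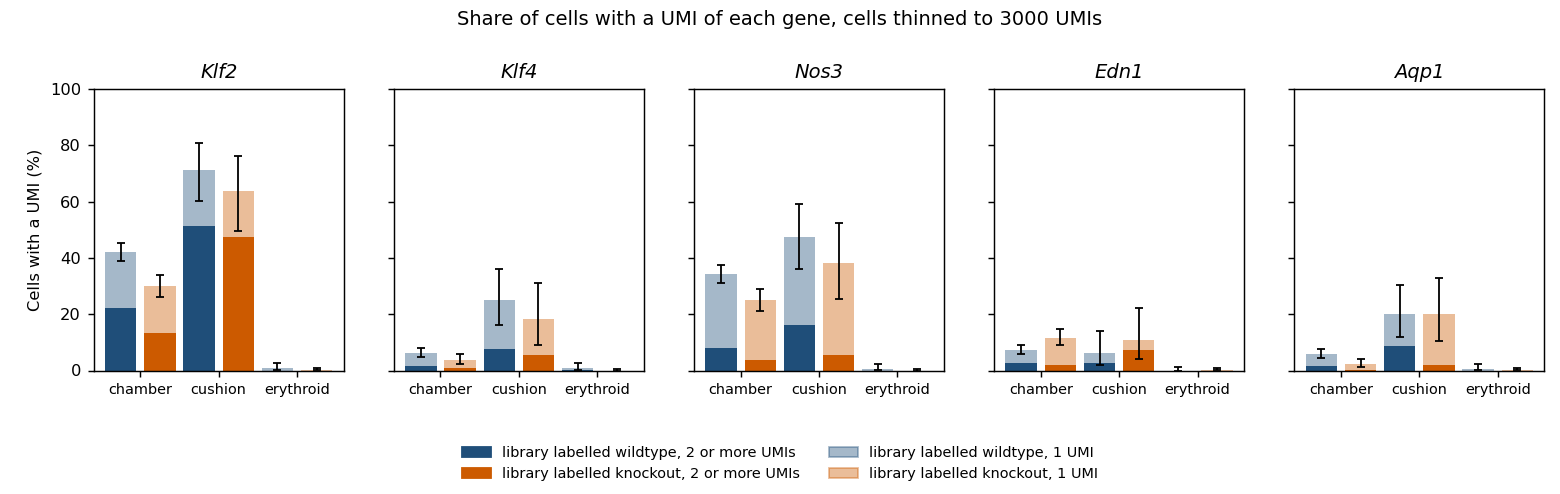
Share of chamber, cushion and erythroid-like cells with a UMI of each gene after sampling to 3000 UMIs per cell; dark bars are cells with 2 or more UMIs, pale bars cells with 1, and error bars Clopper-Pearson intervals of the total. Klf2 was found in 71.3% and 63.6% of cushion cells and in 42.1% and 29.9% of chamber cells.

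Klf2 was often found in the same cells as Klf4, Nos3 and Aqp1. Of endothelial cells with a Klf2 UMI, 16.4% labelled wildtype and 12.4% labelled knockout also had Klf4, against 1.72% and 1.88% of cells without Klf2. Nos3 was in 42.3% and 33.2% of cells with Klf2, against 28.8% and 22.1% of the others. Klf2 was in 67% and 56.7% of cells with Aqp1, against 41.6% and 32.4% of cells without it. In the other direction, Aqp1 was in 11.5% and 7.05% of cells with Klf2, against 4.37% and 2.71% of the others. In the library labelled knockout these intervals overlapped (4.16% to 11.1% and 1.45% to 4.59%). Edn1 was in 6.37% of cells with Klf2 and 9.26% without it in the library labelled wildtype, and in 11.6% and 11.7% in the library labelled knockout, so the intervals overlapped in both. Aqp1 was in 8.62% and 5.38% of cells with Nos3, against 6.87% and 3.74% of the others, again with overlapping intervals. Edn1 was in 33.3% (17.3% to 52.8%) of the 30 cells labelled knockout with Aqp1, against 10.7% (8.5% to 13.3%) of the others. These shares were 11% and 7.76% in the library labelled wildtype, with overlapping intervals. Such cells can share a subtype, as cushion cells were high in several of these genes. Within chamber cells alone, Klf4 was in 13.1% and 8.92% of cells with Klf2, against 1.47% and 1.63% of the others. Nos3 was in 37.9% and 28.7% against 31.6% and 23.4%, with overlapping intervals. Klf2 was in 58.2% and 50% of chamber cells with Aqp1, against 41.1% and 29.4%, also overlapping. The part of subtype was not tested.

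Level also varied with cell cycle genes and with immediate early genes, a group that tissue dissociation can induce. Endothelial cells in which 3 or more G2/M UMIs were sampled had less Klf2 than cells with 0, by a log2 ratio of -0.57 (-0.77 to -0.38) in the library labelled wildtype and -0.35 (-0.65 to -0.05) in the library labelled knockout. Such cells numbered 324 against 669 in the first and 318 against 206 in the second. Edn1 was at -0.62 and -0.70 in the same comparison. Klf4 was at -1.10 (-1.82 to -0.44) and Nos3 at -0.45 (-0.76 to -0.14) in the library labelled wildtype. In the library labelled knockout their intervals held 0 (-0.63 and -0.24), and those of Aqp1 held 0 in both libraries (-0.19 and -1.10). Cells were also ranked by immediate early UMIs into 3 equal groups, ties in file order. The top group against the bottom group had Klf2 at 1.32 (1.13 to 1.51) and 1.41 (1.09 to 1.73) and Klf4 at 1.46 and 2.10. Aqp1 was at 1.23 (0.61 to 1.87) in the library labelled wildtype and Edn1 at 1.14 (0.42 to 1.90) in that labelled knockout. Their intervals held 0 in the other library, at 0.93 and 0.48, as did those of Nos3 (0.22 and 0.18) in both. Between libraries the 15 measured genes of the immediate early list had a median log2 ratio of -0.24. Of these, 5 had an interval above 0 and 4 below, against 18.3% and 29.6% of all genes measured in endothelial cells. Above were the inducible heat shock genes Hspa1a (2.04) and Hspa1b (2.59), Zfp36 (0.75), Nr4a1 (0.74) and Junb (0.35). Below were Jun (-0.25), Ier2 (-0.37), Dusp1 (-0.40) and Btg2 (-0.33), while Jund, the most abundant, was at -0.07. The part of the cell cycle and of dissociation in the ratios was not tested.

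Upstream of Klf2, genes of candidate flow sensors were lower or level in endothelial cells labelled knockout. Of 8 measured sensors, 6 had an interval below 0 and 0 above, with a median log2 ratio of -0.30. Over all genes measured in endothelial cells 29.6% had an interval below 0 and 18.3% above, with a median of -0.10. Piezo2 (-1.97) and Piezo1 (-0.54) encode mechanosensitive channels, Pkd1 (-0.72) encodes polycystin 1 and Gnaq (-0.31) a G protein subunit. In chamber cells alone Piezo2 was only at -0.66 (-1.21 to -0.13), from 81 and 48 UMIs. Piezo1 was at -0.58 there, Pkd1 at -0.84 and Gnaq at -0.39. The list of the kinase arm and its MEF2 factors also holds the deacetylase genes Hdac5 and Hdac7, so its genes need not act on Klf2 in the same direction. Of its 10 genes, 6 had an interval below 0 and 0 above over all endothelial cells, with a median of -0.20. They included Mef2c (-0.73), Prkd2 (-0.46), Hdac7 (-0.41) and Mef2a (-0.20). Of the 5 genes of the cerebral cavernous malformation complex, 3 were below 0 and 0 above, namely Ccm2l (-0.49), Heg1 (-0.36) and Pdcd10 (-0.13), with a median of -0.13. Among chamber cells alone the medians were -0.35 for the sensors, -0.27 for the kinase arm and -0.09 for this complex, beside -0.11 for all genes. No test of a list was made.

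**Figure D5:**
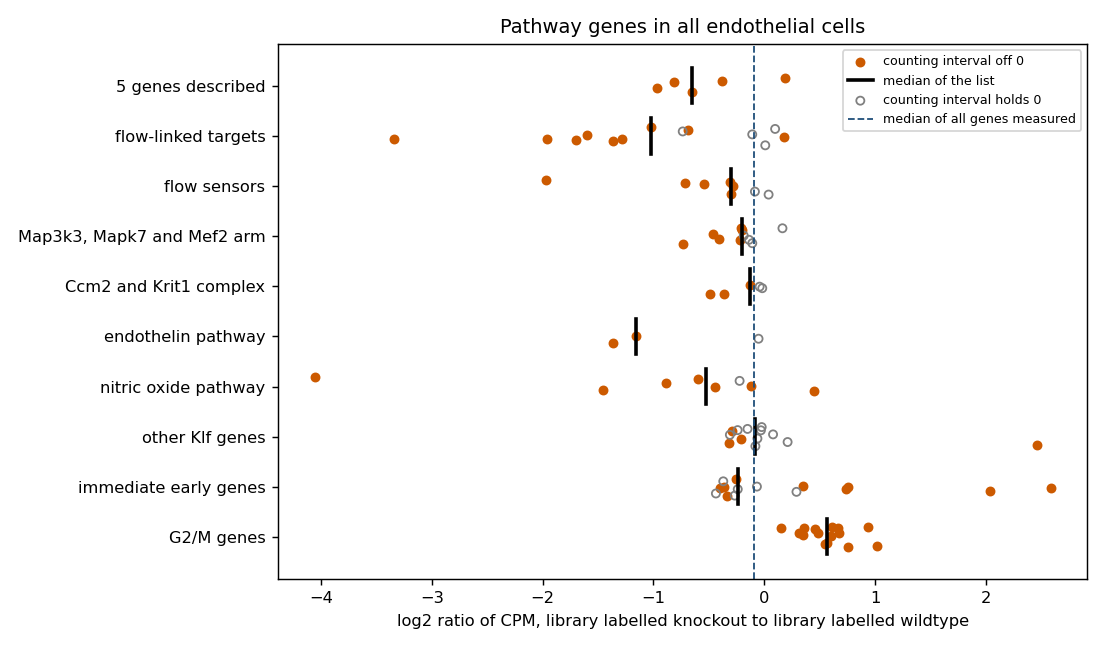
Log2 ratio of CPM between libraries (knockout label over wildtype label) of each measured gene of the lists in all endothelial cells; filled points have a counting interval off 0, black bars are list medians and the dashed line is the median of all genes. The median of the flow-linked targets, a list not sorted by the direction in which flow acts, is at -1.03 and that of the G2/M genes at 0.56.

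Downstream, 8 of 13 measured flow-linked targets had an interval below 0 and 1 above, against 29.6% and 18.3% of all genes, with a median of -1.03. The list does not separate genes that flow raises from genes that it lowers, so neither count nor median measures a response to flow. Cav1, the gene of caveolin 1, was at 170.0 CPM in endothelial cells labelled wildtype and 16.8 CPM in those labelled knockout (-3.34). Vascular cells, which held 471 CPM of Cav1 in the library labelled wildtype, were 131 of 1337 endothelial cells there and 7 of 721 in the library labelled knockout, but chamber cells alone also differed, at 107 and 11.6 CPM. Vcam1, an adhesion molecule gene, was at -1.70 and Gja5, a connexin gene, at -1.60, from 62 and 17 UMIs. Dlc1, the most abundant, was the 1 gene above 0, at 0.18, but it was lower in chamber cells, at 675 and 640 CPM (-0.078, interval -0.13 to -0.021), and higher in cushion cells, at 203 and 542 CPM.

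In the nitric oxide pathway 6 of 8 measured genes had an interval below 0 and 1 above, with a median of -0.52. Gucy1a1 (-1.46) and Gucy1b1 (-0.88) encode the subunits of the receptor for nitric oxide, soluble guanylate cyclase. Nostrin (-0.60) binds Nos3 and Prkg1 (-0.45) is the kinase that cyclic GMP activates. The 1 gene above 0 was Ddah1 (0.45), whose enzyme degrades an inhibitor of nitric oxide synthases. In chamber cells alone 4 of 7 measured genes of this pathway were below 0 and 1 above. Their median there was -0.25, beside -0.11 for all genes. Of the endothelin pathway 3 of 6 genes were measured in all endothelial cells. Ednrb, an endothelin receptor, went from 572 to 257 CPM (-1.15), and Ednra, the other receptor, was at -1.36 from 34 and 11 UMIs. Ece1, the converting enzyme, was at -0.05 with an interval that held 0. Of the other 9 aquaporin genes 2 had enough UMIs: Aqp8 was at -1.74 from 32 and 8 UMIs, and the interval of Aqp11 (-0.37) held 0. Among 13 measured relatives of Klf2 and Klf4, 3 were below 0 and 1 above, smaller shares than the 29.6% and 18.3% of all genes, with a median of -0.08. Klf3 (-0.31), Klf10 (-0.29) and Klf13 (-0.21) were below, Klf9 (-0.31) had an interval that held 0, and Klf1, an erythroid factor, was above at 2.47 from 5 and 23 UMIs. Ddah1, Ednra, Aqp8, Klf1 and Klf13 are named to complete the counts, after their values were seen. So are Nr4a1, Junb, Jun, Ier2, Dusp1 and Btg2 among the immediate early genes, and Hba-a1, Hbb-bh1 and Hba-x among the hemoglobin genes.

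Over 19 cell groups, in part nested, with at least 50 cells each, the genes whose log2 level was most like that of each gene were listed by Pearson correlation among 7011 candidates. For Klf2 they were Klf10 (0.95), Klk8 (0.94) and Sbds (0.92), and for Klf4 Arl4d (0.94), Arf2 (0.92) and Wnt4 (0.90), the last a marker of the cushion gate. Nos3 was most like She, Rasip1 and Erg, each at 0.99, and its own correlation with the other 4 genes ran from 0.60 to 0.88. Edn1 was most like Fbn1, Adgra2 and Zdhhc15, each at 0.93, and Aqp1 most like Mfap5 (0.95), Kcnc2 (0.93) and Jam2 (0.93). The groups share libraries and cells, so these values only describe order over groups.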

How the data were processed

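The authors deposited UMI counts per gene for every barcode, without normalization. Per the submitters' processing notes they came from Cell Ranger 7.1.0 and mm10. Cells had at least 3000 UMIs, 500 genes and at most 20% mitochondrial UMIs. The minimum of 500 genes removed 3642 barcodes labelled wildtype (88.7% hemoglobin UMIs) and 15 labelled knockout. Classes and subtypes came from marker gates on cells thinned to 3000 UMIs, subtypes needing at least 2 UMIs of a panel. Cells within 2 markers of another class were left out as mixed (573 and 602), which also served against doublets, and Scrublet ranks (scanpy 1.11.5) gave an alternative without 443 and 285 cells. Its automatic threshold marked 1 cell labelled wildtype and 243 labelled knockout and was not used. UMIs were summed per class and library and scaled to CPM. Levels have exact Poisson intervals, ratios exact conditional binomial intervals and shares Clopper-Pearson intervals (scipy 1.17.1). Only the ratio interval was tried on simulated data, drawn as independent Poisson counts. That setting leaves out the uneven spread of UMIs over cells, so it cannot show how the interval behaves under such spread. A gene was measured from 20 UMIs, both libraries together. Of each list, the 3 genes with the largest ratio among those with at least 50 UMIs and the most abundant gene are named. The genes, lists and gates were chosen with earlier results of these data known. Replicates are lacking, so no test between genotypes was run.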

Additional observations from a re-analysis of the deposited data

Results flagged for a closer look

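Klf2, lower in endothelial cells labelled knockout (log2 ratio -0.38), was higher there in mesenchymal-like cells at 0.70 and in macrophage-like cells at 1.51, from 261 and 157 and from 196 and 249 UMIs. In mesenchymal-like cells 1 cell labelled knockout held 61 UMIs, and without the cell with most UMIs in each library the ratio was 0.067 (-0.29 to 0.41), so it was then not apart from 0. The macrophage-like ratio was then 1.35. Edn1 had a cushion to chamber log2 ratio of 1.05 in the library labelled knockout and -0.53 (-1.26 to 0.12) in the library labelled wildtype. These differences between groups were picked out because the values point in opposite directions, and they were not tested.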

How the results depend on the processing

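No paired analysis was possible because each genotype has 1 library. With gates read at full depth the log2 ratio between libraries in endothelial cells was -0.27 for Klf2 and -0.70 for Aqp1, and the cushion to chamber ratio was 1.91 for Klf4 in the library labelled wildtype and 2.01 for Aqp1 in that labelled knockout. A class gate of 6 markers gave -0.57 for Aqp1 between libraries and cushion to chamber ratios of 1.43 and 2.16 for Klf2. A subtype gate of 3 UMIs gave cushion to chamber ratios of 1.44 for Klf2 labelled wildtype and 1.42 for Edn1 labelled knockout. Levels from thinned cells gave -0.49 for Klf2 and -0.00999 for Edn1 between libraries, the latter with its sign turned, and cushion to chamber ratios of 1.42 for Klf2 and 1.78 for Aqp1 labelled wildtype and 0.29 for Edn1 labelled knockout. Relative to the median gene Klf2 was at -0.29 between libraries. Subtracting free RNA gave Klf2 a cushion to chamber ratio of 1.70 in the library labelled knockout. Among settings chosen after seeing the data, leaving out vascular cells gave -0.47 for Klf2, and the gate of Nfatc1 and Wnt4 gave cushion to chamber ratios of 1.74 for Klf2, 2.88 for Klf4 and 0.88 for Nos3 labelled wildtype. Leaving out the cell with most UMIs of a gene gave Edn1 a cushion to chamber ratio of 0.65 labelled knockout, and turned no ratio of the 5 genes in endothelial, chamber or cushion cells. With a minimum of 100 UMIs, 128 genes were at least 2-fold higher and 524 lower, against 326 and 1157, since fewer genes were measured. The causes of the other shifts were not tested. Within the alternatives run, Klf2, Klf4, Nos3 and Aqp1 kept a ratio below 0 between libraries in endothelial and chamber cells. The 80 and 55 cushion cells limit the precision there.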
